A study of Mus musculus with 4 samples.

Results

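The stefin A cluster examined here comprised 6 genes, Stfa1, Stfa2, Stfa3, Stfa2l1, BC100530 and Gm5483, of the 28585 genes listed in the files. They were taken by name as the stefin A genes of the neutrophil. Stfa1, Stfa2, Stfa3 and Stfa2l1 were matched by symbol. The other 2 were matched by gene identifier, because the files list BC100530 (ENSMUSG00000071561) as Cstdc5 and Gm5483 (ENSMUSG00000079597) as Cstdc4. All 6 passed the filter on low values and were among the 17948 genes tested. Expression was given as FPKM (fragments per kilobase of transcript, scaled to the mapped fragments of the library), a unit that is scaled for transcript length, so that a comparison between genes depends on the length used. The lengths behind the deposited values are not given in the sources used here.

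The 4 libraries came from PMN-MDSCs, polymorphonuclear myeloid-derived suppressor cells, which are granulocytic cells with the capacity to restrain T cells. They were sorted from mouse spleen at postnatal day 7 as CD11b+ Ly6G+ cells with low or no Ly6C, and RNA was taken from 300000 cells a sample. There were 2 Dhps cko libraries (Dhps fl/fl with Lysm cre) and 2 Dhps flox libraries (Dhps fl/fl), so that both groups carried the floxed allele and differed by the Cre. Dhps encodes deoxyhypusine synthase, which uses spermidine to modify eIF5A. Lysm cre is expressed from the Lyz2 locus and acts in myeloid cells generally, macrophages included. The comparison asked what loss of Dhps changed in these cells. The labels do not say whether the replicates were separate or pooled animals, so p-values measure only the spread between these samples.

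Stefins are small cystatins without a signal peptide. They act inside the cell as tight, reversible inhibitors of papain-like cysteine proteases such as cathepsins B, H, L and S, and their first hairpin loop carries the conserved motif QxVxG that enters the active site cleft. The human genome has a single stefin A gene, CSTA, whereas the mouse has a tandem array, several members of which are strongly expressed in neutrophils and their precursors. Stefin B (Cstb) and the secreted cystatin C (Cst3) are relatives that lie elsewhere in the genome.

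The 6 genes lay within 299 kb of chromosome 16 (GRCm38, GENCODE M21), 3 on each strand. In order along the chromosome they were Stfa2l1 (chr16:36156811-36161953, plus strand), Gm5483 (chr16:36184212-36188111, plus), Stfa1 (chr16:36276951-36285373, plus), BC100530 (chr16:36359382-36367748, minus), Stfa2 (chr16:36403992-36408457, minus) and Stfa3 (chr16:36450537-36455392, minus). Each had 3 exons. The coding sequence with its stop codon was 294 bases in Stfa1, BC100530 and Gm5483 and 312 bases in Stfa2, Stfa3 and Stfa2l1, that is 97 or 103 codons before the stop. The middle exon was 102 bases, entirely coding, in all 6 genes. Its bases 70 to 84 encode the QxVxG motif, which was present in all 6 translations. The middle exons are shown because they carry the inhibitory loop and show how close the genes are to each other. They are written 5′ to 3′ on the gene's own strand, and capitals mark bases that differ from the commonest base at that position.
Stfa1: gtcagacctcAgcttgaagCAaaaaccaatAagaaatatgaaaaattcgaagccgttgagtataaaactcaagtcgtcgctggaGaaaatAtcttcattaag
BC100530: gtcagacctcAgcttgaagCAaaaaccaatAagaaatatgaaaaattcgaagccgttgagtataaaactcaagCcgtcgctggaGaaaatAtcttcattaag
Stfa2: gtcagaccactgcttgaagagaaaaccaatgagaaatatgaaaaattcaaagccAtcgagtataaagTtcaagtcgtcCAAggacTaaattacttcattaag
Stfa2l1: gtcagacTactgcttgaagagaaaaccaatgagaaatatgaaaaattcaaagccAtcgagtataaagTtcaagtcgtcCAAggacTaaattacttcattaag
Stfa3: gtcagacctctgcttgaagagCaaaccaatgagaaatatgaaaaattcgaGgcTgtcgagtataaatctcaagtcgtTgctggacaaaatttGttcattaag
Gm5483: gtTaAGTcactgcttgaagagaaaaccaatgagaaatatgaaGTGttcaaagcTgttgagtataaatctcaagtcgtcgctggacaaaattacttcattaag

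These exons lie at chr16:36280466-36280567 (Stfa1), chr16:36364212-36364313 (BC100530), chr16:36405130-36405231 (Stfa2), chr16:36159946-36160047 (Stfa2l1), chr16:36452151-36452252 (Stfa3) and chr16:36186364-36186465 (Gm5483). All 6 sequences had the same base at 71 of the 102 positions, and at 5 positions no base was commonest and none is capitalised. Stfa1 and BC100530 differed by 1 base, as did Stfa2 and Stfa2l1. The other pairs differed by 13 to 19 bases. Over the whole coding sequence Stfa1 and BC100530 were 98.0% identical and Stfa2 and Stfa2l1 96.5%, whereas the remaining pairs of the 6 were 73.4% to 81.7% identical. Gm5483 had its closest relative outside the 6, Csta2 (96.9%). Cstdc6 was 95.2% identical to BC100530 and 93.5% to Stfa1.

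**Figure D1:**
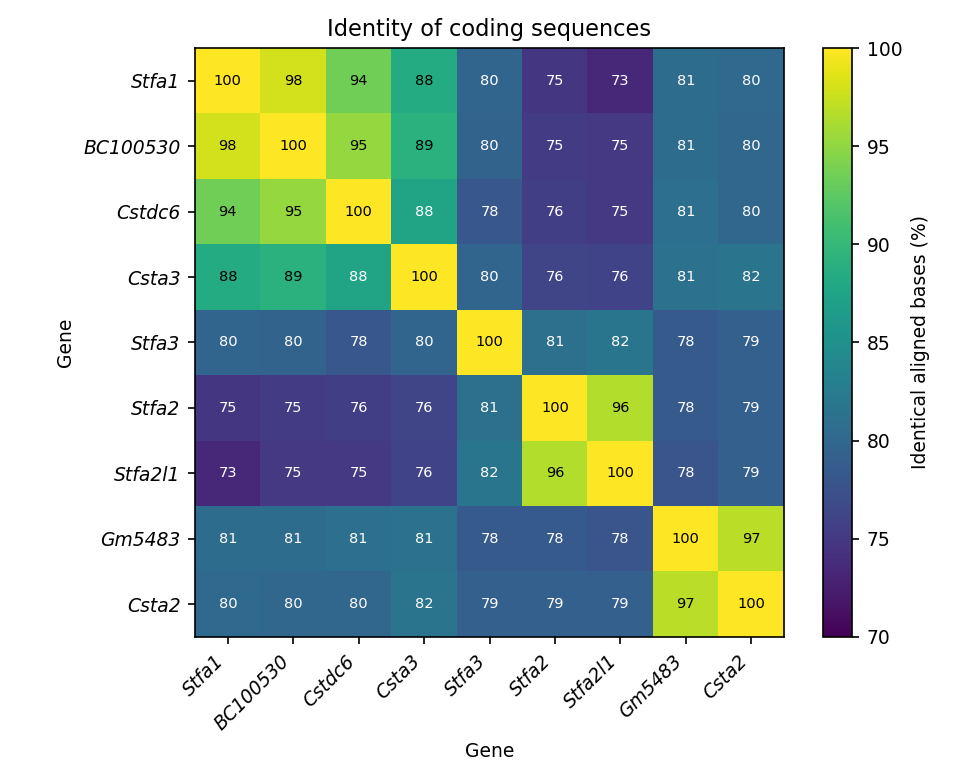
Percentage of identical aligned bases between the coding sequences of the 6 cluster genes and of 3 neighbouring stefin A genes (Csta2, Csta3 and Cstdc6), by global alignment. Both axes list the genes and the colour scale runs from 70% to 100%. Stfa1, BC100530 and Cstdc6 form a block above 93%, and Stfa2 with Stfa2l1 and Gm5483 with Csta2 form pairs above 96%.

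Reads from identical stretches cannot be assigned to 1 gene, so the share of each transcript that occurs exactly in another gene was computed. At a stretch length of 100 bases no stretch of Stfa2, Stfa3 or Stfa2l1 occurred in another gene. For Stfa1 it was 5.6% of stretches, for Gm5483 11.1% and for BC100530 22.3%. The stretches of Stfa1 were shared with BC100530, and those of Gm5483 with Csta2. BC100530 shared 9.23% of its stretches with Gm15845, 7.5% with Cstdc6 and 5.58% with Stfa1. Gm15845 is an antisense gene model that overlaps 145 exonic bases of BC100530, 23.4% of them. The strand setting of the library was not given in the sources used here, so reads of BC100530 and Gm15845 cannot be told apart over those bases. At 50 bases the shares rose to 48.9% in BC100530, 35.6% in Gm5483, 26.9% in Stfa1, 24.6% in Stfa2l1 and 15.9% in Stfa2, and stayed at 0 in Stfa3. At 150 bases no stretch of any of the 6 occurred in another gene. Thus Stfa3 had no stretch in common with another gene at any of these lengths, while the division of reads between Stfa1 and BC100530, Stfa2 and Stfa2l1, and Gm5483 and Csta2 is uncertain.

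**Figure D2:**
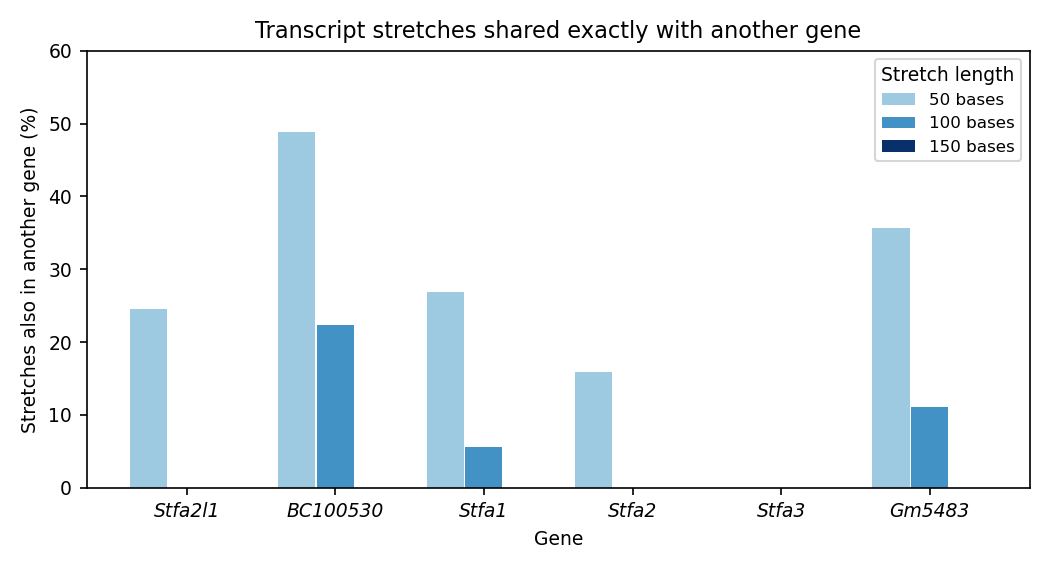
Percentage of the stretches of each transcript that also occur, base for base, in the transcript of another gene (vertical axis), for the 6 cluster genes (horizontal axis) and stretches of 50, 100 and 150 bases (bars, from 0). BC100530 has the highest share at 50 bases (48.9%) and at 100 bases (22.3%), Stfa3 is at 0 throughout, and no gene has a shared stretch of 150 bases.

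All 6 genes were abundant transcripts of the sorted cells. Ranked by mean FPKM over the 4 libraries among 28585 genes, Stfa2l1 was at position 5, BC100530 at 7, Stfa1 at 9, Stfa2 at 10, Stfa3 at 11 and Gm5483 at 22. Together they held 7.12% and 7.88% of the summed FPKM in the Dhps cko libraries and 7.80% and 6.64% in the Dhps flox libraries. Estimated from low values, the libraries held about 29900000 to 32000000 fragments. At that depth the least abundant gene, Gm5483, rests on about 13700 to 17800 fragments a library, Stfa2l1 on about 61600 to 75800, Stfa1 on about 69400 to 88400 and BC100530 on about 69800 to 93600. These are rough estimates from FPKM and GENCODE transcript length, since the low values held only a weak trace of whole fragments.

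Stfa2l1 had 5422.03 and 5816.69 FPKM in Dhps cko, against 5671.47 and 4915.97 FPKM in Dhps flox (replicate 1 first here and in all pairs of values that follow). Its FPKM was the highest of the 6 in every library, and its genotype ranges overlapped. Its near copy Stfa2 stood at 4100.06 and 4657.30 FPKM in Dhps cko and at 4361.61 and 3640.74 FPKM in Dhps flox. Here too the Dhps cko values lay between the 2 Dhps flox values or just above them.

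BC100530 was at 4345.44 and 4861.38 FPKM in Dhps cko and at 4724.75 and 3773.03 FPKM in Dhps flox. Stfa1, its near copy, was at 4073.52 and 4606.27 FPKM against 4645.42 and 3761.98 FPKM. For both genes Dhps flox replicate 2 was the lowest library. For Stfa1 both Dhps cko values fell inside the range of the Dhps flox values. Stfa3, the gene without shared stretches, stood at 3257.67 and 3900.35 FPKM in Dhps cko and at 3810.25 and 2994.20 FPKM in Dhps flox. Gm5483, the least abundant, stood at 1202.57 and 1328.27 FPKM in Dhps cko and at 1400.39 and 1109.83 FPKM in Dhps flox. The genotype ranges overlapped for each of the 6 genes.

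**Figure D3:**
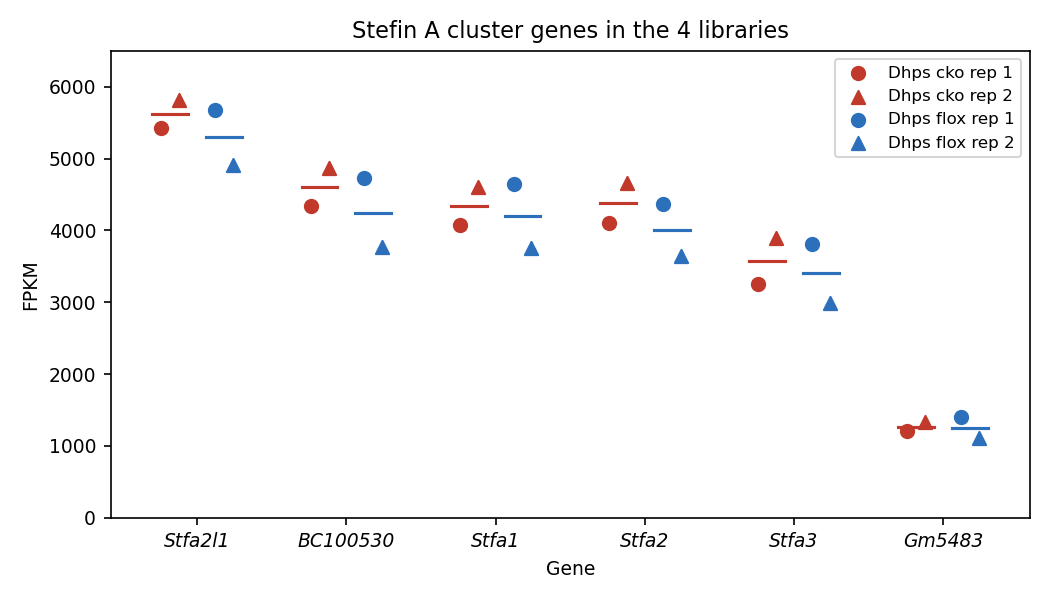
FPKM of each cluster gene (vertical axis, linear, from 0) in the 2 Dhps cko libraries (red) and the 2 Dhps flox libraries (blue), with replicate 1 as a circle, replicate 2 as a triangle and the group mean as a horizontal line. Stfa2l1 lies highest (4915.97 to 5816.69 FPKM) and Gm5483 lowest (1109.83 to 1400.39 FPKM), and red and blue points overlap for every gene.

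The order of the levels in FPKM was largely fixed across libraries, but it depends on the transcript lengths. The GENCODE transcripts were 617 bases in Stfa1, 471 in Stfa2, 619 in BC100530 and 412 to 419 in Stfa3, Gm5483 and Stfa2l1. Counted from the RefSeq start sites, which lie 197, 94 and 178 bases inside the first exon, those of Stfa1, Stfa2 and BC100530 would be 420, 377 and 441 bases. Estimated fragments are FPKM multiplied by GENCODE length and depth, and by them Stfa1 and BC100530 were above Stfa2l1 in 4 of 4 libraries. That reversal follows from their longer transcripts and is no separate evidence on the order. The order described here is that of the deposited FPKM only. In FPKM, Stfa2l1 exceeded BC100530 in 4 of 4 libraries, its mean being 123% of that of BC100530, and their ranges over the libraries did not overlap. BC100530 exceeded Stfa1 in 4 of 4 libraries, but with a mean of only 104% and overlapping ranges. Stfa1 and Stfa2 exchanged places, Stfa2 being the higher in both Dhps cko libraries and Stfa1 in both Dhps flox libraries. Stfa2 exceeded Stfa3 in 4 of 4 libraries with overlapping ranges, and Stfa3 had 277% of the level of Gm5483, without overlap. Within the cluster, Stfa2l1 made up 23.0% to 24.3% of the summed FPKM, BC100530 18.7% to 19.4%, Stfa1 18.2% to 18.9%, Stfa2 17.7% to 18.5%, Stfa3 14.5% to 15.5% and Gm5483 5.28% to 5.69%. The widest range, that of Stfa2l1, was 1.3 percentage points. By genotype, the share of Stfa1 was 18.2% and 18.3% in Dhps cko and 18.9% and 18.6% in Dhps flox, and that of Gm5483 was 5.37% and 5.28% against 5.69% and 5.5%. The share of Stfa2 was 18.3% and 18.5% against 17.7% and 18.0%, and that of BC100530 19.4% and 19.3% against 19.2% and 18.7%. Thus the shares of Stfa1 and Gm5483 were lower and those of Stfa2 and BC100530 higher in Dhps cko without overlap, by about 1 percentage point or less. Those of Stfa3 and Stfa2l1 overlapped. In FPKM, 36.0% of all genes tested were free of overlap between genotypes, and no such background was computed for these shares. Stfa1 and BC100530, whose shares lay in opposite directions, are the near copies between which the division of reads is uncertain. The shares add up to the whole, so they are not independent of each other, and they were not tested.

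None of the 6 genes passed the test between genotypes. By limma on log2(FPKM + 0.1), with Benjamini-Hochberg adjustment over all genes tested, 0 of 6 had an adjusted p under 0.05, where 0.00557% of all genes tested did (1 of 17948). At an unadjusted p under 0.05 it was also 0 of 6, against 7.0% of all genes tested. The groups were free of overlap in 0 of 6, against 36.0% of all genes tested. With 2 libraries against 2, an exact permutation test of a single gene cannot give a p below 0.333.

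The fitted differences, Dhps cko minus Dhps flox, were small and their intervals included 0. For Stfa2l1 the mean was 5619 ± 279 FPKM in Dhps cko and 5294 ± 534 in Dhps flox (SD, n = 2 each), a log2 fold change of 0.09 ± 0.11 (SE), with a 95% interval of -0.19 to 0.37 and a limma adjusted p of 0.90. Stfa2, at 4379 ± 394 and 4001 ± 510 FPKM (SD, n = 2 each), had the largest difference of the 6, a log2 fold change of 0.13 (95% interval -0.19 to 0.46, limma adjusted p 0.86). For BC100530 the means were 4603 ± 365 and 4249 ± 673 FPKM, a difference of 0.12 (-0.24 to 0.48). Stfa1 stood at 4340 ± 377 against 4204 ± 625 FPKM, a difference of 0.05 (-0.30 to 0.40). For Stfa3 they were 3579 ± 454 and 3402 ± 577 FPKM, a difference of 0.08 with the widest interval of the 6 (-0.32 to 0.48). Gm5483, at 1265 ± 89 and 1255 ± 205 FPKM, had the smallest difference, 0.02 (-0.32 to 0.36). The adjusted p of these last 4 genes was between 0.89 and 0.99. These intervals leave room for a change of up to 0.48 on the log2 scale in either BC100530 or Stfa3, and the data do not show that the levels were equal.

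The median difference of the 6 genes was 0.08 on the log2 scale, with 6 of 6 above 0, beside a median of 0.01 and 9368 of 17948 above 0 over all genes tested. This direction depended on 2 of the libraries. Without Dhps flox replicate 2 the differences of Stfa1, Stfa3, Stfa2l1, BC100530 and Gm5483 turned negative, to between -0.148 and -0.014. That of Stfa2 fell to 0.003. Without Dhps cko replicate 2, those of Stfa1 (-0.037), Stfa3 (-0.052) and Gm5483 (-0.052) turned negative.

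**Figure D4:**
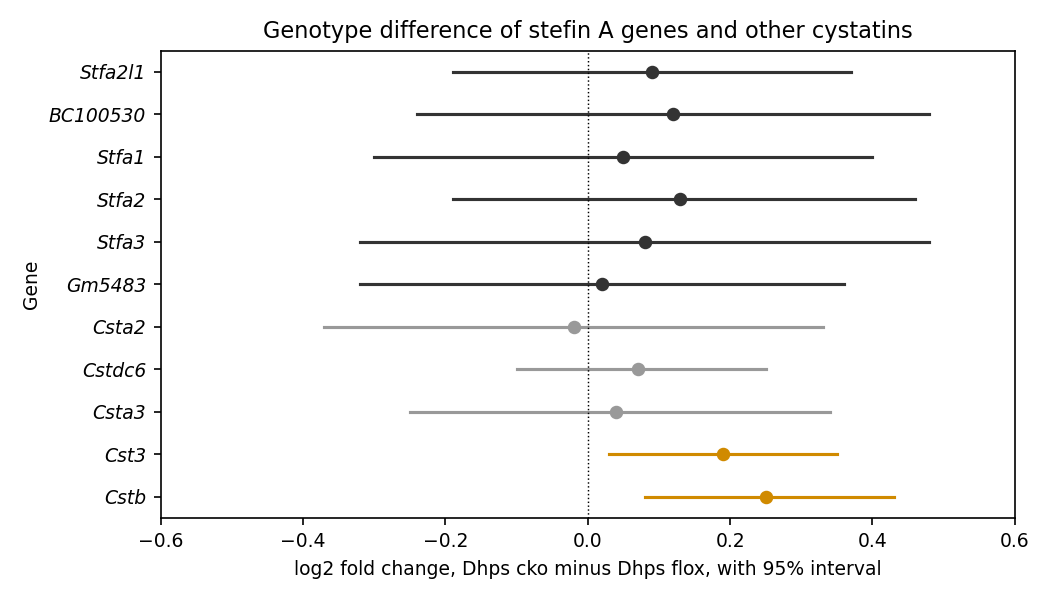
Fitted log2 fold change, Dhps cko minus Dhps flox (horizontal axis), for the 6 cluster genes (black), 3 neighbouring stefin A genes (grey) and Cst3 and Cstb (orange). Points are limma estimates from 2 libraries a group and bars are 95% intervals. The intervals of all 6 cluster genes include 0, and those of Cst3 (0.03 to 0.35) and Cstb (0.08 to 0.43) lie above it before adjustment.

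Sums over near-identical genes depend less on how reads were divided between them than the single values do. They are not free of it, since FPKM is divided by transcript length (471 bases in Stfa2 and 419 in Stfa2l1). Stretches are also shared with genes outside these pairs. At 50 bases BC100530 shared 17.2% with Gm15845 and 16.1% with Cstdc6, Stfa1 11.3% with Cstdc6 and Stfa2l1 7.84% with Gm49652. Stfa1 and BC100530 together gave 8419.0 and 9467.7 FPKM in Dhps cko and 9370.2 and 7535.0 FPKM in Dhps flox. For Stfa2 and Stfa2l1 the sums were 9522.1 and 10474.0 FPKM against 10033.1 and 8556.7 FPKM. Gm5483 with Csta2 gave 1652.7 and 1856.5 FPKM against 1953.8 and 1552.6 FPKM. The Dhps cko mean was 106%, 108% and 100% of the Dhps flox mean for these pairs, and the genotypes overlapped in each. The whole cluster summed to 22401 and 25170 FPKM in Dhps cko and to 24614 and 20196 FPKM in Dhps flox. Its Dhps cko mean was 106% of the Dhps flox mean, a log2 ratio of 0.09, which is below the SD within genotypes of 0.17.

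The clearest variation of the cluster was between replicates of 1 genotype, and there the genes moved together. In all 6, Dhps flox replicate 1 exceeded Dhps flox replicate 2, at 115% (Stfa2l1) to 127% (Stfa3) of its level. Likewise Dhps cko replicate 2 exceeded Dhps cko replicate 1, at 107% (Stfa2l1) to 120% (Stfa3). Dhps flox replicate 2 was the lowest and Dhps cko replicate 1 the next lowest library for every gene. For comparison, 712 abundant genes, whose mean reached 50 FPKM, had median ratios of 98.9% and 100% for the same library pairs. Of those genes, 2.67% had a Dhps flox ratio at least as high as that of Stfa3, and 9.55% one at least as high as that of Stfa2l1. For the Dhps cko ratio it was 2.11% for Stfa3 and 13.9% for Stfa2l1.

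Genes of other roles shared this pattern. S100a8, a subunit of calprotectin and a neutrophil marker, stood at 7781.43 and 8315.44 FPKM in Dhps cko and at 8661.73 and 7164.88 FPKM in Dhps flox, in the same order of libraries as Stfa1. Retnlg, a late neutrophil transcript, stood at 1600.73, 1737.4, 1638.78 and 1372.32 FPKM in the same libraries, and Dhps flox replicate 2 was again the lowest. Among 711 genes whose mean reached 50 FPKM, the 5 outside the cluster whose profile over the 4 libraries was closest to that of Stfa2l1 were H3f3a, Bcap31, Cd24a, Serp1 and Samd9l. Their root mean square difference from Stfa2l1, on the log2 scale after centring each gene on its mean, was 0.0134 for H3f3a and 0.021 for Samd9l. The other 5 stefin A genes were less close, from 0.0413 for Stfa2 (position 30 of 711) to 0.0753 for Stfa3 (position 170). With 4 libraries this is a description, and many genes lie near any 1 profile. H3f3a, which encodes histone H3.3, had 163.43 and 170.99 FPKM in Dhps cko and 168.22 and 145.35 FPKM in Dhps flox.

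**Figure D5:**
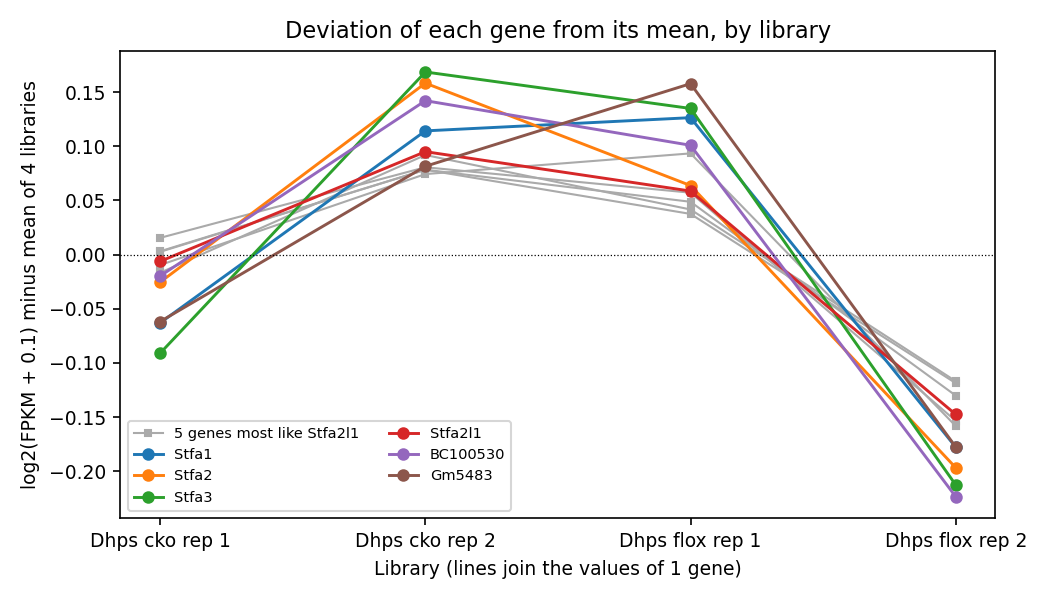
Deviation of each gene from its own mean over the 4 libraries, in log2(FPKM + 0.1) (vertical axis), for the 6 cluster genes (coloured) and the 5 genes most like Stfa2l1 (grey, H3f3a, Bcap31, Cd24a, Serp1 and Samd9l), by library (horizontal axis). Lines only join the values of 1 gene. All 11 genes are lowest in Dhps flox replicate 2 and above their mean in Dhps cko replicate 2 and Dhps flox replicate 1.

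Markers of other cells also differed between these replicates. The summed level of 5 listed keratinocyte and squamous epithelium markers, a tissue that expresses stefin A in other settings, was 19.7 FPKM in Dhps flox replicate 1 and 0.24 in Dhps flox replicate 2, with 1.93 and 3.74 in the Dhps cko libraries. The libraries thus had the same order as for Stfa1 and Gm5483. Krt5, a basal keratin, stood at 7.33 FPKM in Dhps flox replicate 1 and at 0.03 to 1.36 in the others. Krt14 was listed at 0 in Dhps flox replicate 2 and at 5.34 FPKM in Dhps flox replicate 1, and Krt10 at 0.15 and 5.24 FPKM. The cluster itself summed to 20196 to 25170 FPKM, and the part of such cells in the result was not tested. The summed erythroid markers (549, 666, 462 and 683 FPKM in Dhps cko replicates 1 and 2 and Dhps flox replicates 1 and 2, led by Hbb-bs, Hba-a1 and Hbb-bt) were higher in Dhps flox replicate 2 than in replicate 1, and their part was not tested either. In bulk samples, fewer cells of a type and less RNA per cell cannot be told apart.

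The files list 28 other genes between the outermost of the 6 or within 100 kb of them, and in 24 of these the mean reached 0.1 FPKM. The expressed stefin A genes among them lay well below the 6. Csta2 was at 450.12 and 528.27 FPKM in Dhps cko and at 553.36 and 442.74 FPKM in Dhps flox. Cstdc6 was at 286.27 and 314.94 FPKM against 282.77 and 288.86 FPKM, and Csta3 at 173.17 and 198.06 FPKM against 197.14 and 163.92 FPKM. Csta2 and Csta3 had the within-genotype order of the cluster, with Dhps flox replicate 1 above replicate 2, whereas Cstdc6 did not. None of the 3 passed the test, with log2 differences of -0.02 (Csta2), 0.07 (Cstdc6) and 0.04 (Csta3). Csta1 (0.09 to 0.23 FPKM) and Cstdc3 (0 to 0.33 FPKM) were close to absent.

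Of the other gene models at the locus, Gm49652 had a mean of 55.0 FPKM and the antisense model Gm15845 35.7 FPKM. Gm15845 stood at 36.75 and 25.53 FPKM in Dhps cko and 43.9 and 36.45 FPKM in Dhps flox, which does not follow BC100530, whose exons it overlaps. Fam162a (mean 8.35), Gm6815 (7.48), Gm10913 (2.37), Gm10813 (1.87) and Ccdc58 (1.22) were low. The remaining 12 were small nuclear RNA models. The nearest opposite-strand model began 60 to 107 bases past the 3′ end of Stfa1, BC100530, Stfa2l1, Gm5483 and Stfa2, and 11791 bases past that of Stfa3. The models beyond BC100530 (Gm25465, mean 19.1 FPKM) and Stfa1 (Gm23306, 16.7 FPKM) had the highest values. Gm22263 (6.27), Gm24437 (3.01), Gm24801 (2.26), Gm25024 (2.04) and Gm24569 (1.51) followed, and Gm22349 (0.63), Gm24218 (0.545), Gm22885 (0.5), Gm23080 (0.167) and Gm25903 (0.1) were lowest. At an unadjusted limma p under 0.05 there were 5 of the 24 genes, against 7.0% of all genes tested. They were Fam162a, Gm23080, Gm24218 and Gm24437 with positive differences and Gm24569 with a negative one. None of the 24 passed after adjustment. Gm23080 (0.24 and 0.43 against 0 and 0 FPKM) and Gm24218 (0.92 and 0.9 against 0.27 and 0.09 FPKM) lay near the pseudocount of 0.1 FPKM.

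The 250 bases before the RefSeq start sites (GRCm38.p6) were compared because the genes moved together between libraries. They were 89.4% identical between Stfa2 and Stfa2l1 and 64.5% to 83.1% between the other pairs. Those of the genes with the highest and the lowest FPKM are shown, Stfa2l1 at chr16:36156561-36156810 and Gm5483 at chr16:36183962-36184211, both on the plus strand, with motif matches in capitals. The RefSeq and GENCODE starts coincide for these genes, whereas for Stfa1, Stfa2 and BC100530 the RefSeq start lies inside the first GENCODE exon.
Stfa2l1: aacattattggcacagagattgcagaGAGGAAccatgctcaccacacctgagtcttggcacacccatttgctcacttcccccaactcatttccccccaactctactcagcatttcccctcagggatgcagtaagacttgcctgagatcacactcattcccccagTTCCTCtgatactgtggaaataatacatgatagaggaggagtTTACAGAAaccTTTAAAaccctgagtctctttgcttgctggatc
Gm5483: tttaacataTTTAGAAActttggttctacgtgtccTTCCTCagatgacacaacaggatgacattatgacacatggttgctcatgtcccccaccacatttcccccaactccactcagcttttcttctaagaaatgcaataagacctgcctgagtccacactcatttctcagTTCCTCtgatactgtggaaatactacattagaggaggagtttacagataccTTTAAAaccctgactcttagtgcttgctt

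Motifs were searched on both strands from 250 bases before to 50 after the start site. GAGGAA, a core of the PU.1 consensus (also read as TTCCTC), occurred in 6 of 6 genes and in 28.3% of 32851 promoters. TTNNGNAA, a core of the C/EBP consensus, occurred in 5 of 6 genes, Stfa3 being the exception, and in 40.7% of promoters. The TATA box TATAAA occurred in 0 of 6 and in 13.6% of promoters. The variant TTTAAA, added after the sequences were seen, occurred in 6 of 6 and in 13.2% of promoters. It began 29 to 33 bases before the start site in 5 genes and 9 bases before it in BC100530. The 6 windows are related sequences and not independent cases, and a match is a description of letters only.

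Cysteine cathepsins, the papain-like proteases among which stefins have their targets, were expressed at far lower transcript levels than the stefin A cluster genes. The list also held legumain, a lysosomal cysteine protease of another family that is not a target of stefins. Of 11 cysteine cathepsins and legumain, all tested, none passed the limma threshold after adjustment. Before it 3 of 11 were below 0.05, against 7.0% of all genes tested, all 3 with higher values in Dhps cko. The median log2 difference was 0.15, with 10 of 11 above 0. Ctsb, cathepsin B, the most abundant of them, stood at 59.0 and 63.27 FPKM in Dhps cko and at 56.52 and 56.09 FPKM in Dhps flox. Ctss, cathepsin S, which processes the invariant chain in antigen-presenting cells, stood at 52.14 and 54.44 FPKM against 41.69 and 39.67 FPKM, a log2 difference of 0.39 ± 0.06 (SE) with a limma adjusted p of 0.41. Ctsz was at 33.82 and 30.31 FPKM against 25.07 and 29.37 FPKM. The other 2 below an unadjusted p of 0.05, named after their values were seen, were Ctsc (0.32), which activates granule serine proteases, and Lgmn (0.35), which encodes legumain. The cathepsin list summed to 211 and 215 FPKM in Dhps cko and to 181 and 182 FPKM in Dhps flox.

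Of 11 cystatins outside the locus, 4 were listed and 3 tested. Cst3 stood at 91.96 and 98.87 FPKM in Dhps cko and 82.22 and 85.12 FPKM in Dhps flox, a log2 difference of 0.19 (95% interval 0.03 to 0.35, limma adjusted p 0.64). Cstb stood at 14.42 and 14.59 FPKM against 12.52 and 11.78 FPKM, a difference of 0.25 (0.08 to 0.43, limma adjusted p 0.57). Unlike in the 6 stefin A genes, the Dhps cko values of both were above the Dhps flox values, but neither passed after adjustment, and whether they differ from the cluster in this was not tested. Cst7, an inhibitor of leukocyte cathepsins, was low (1.65, 0.77, 0.95 and 0.61 FPKM). Monocyte and macrophage markers had the same genotype order, with sums of 357 and 354 FPKM in Dhps cko and 290 and 287 FPKM in Dhps flox. Of these 8 markers, 7 were without overlap, against 36.0% of all genes tested. At an unadjusted limma p under 0.05 there were 5 of 8, against 7.0% of all genes tested. Their part in the cathepsin and cystatin values was not tested.

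The other protease inhibitors of neutrophils had 0 of 8 genes past either threshold, a median difference of 0.08 and 6 of 8 above 0. Serpinb1a, which inhibits neutrophil elastase and its relatives, stood at 225.97 and 225.51 FPKM in Dhps cko and 210.15 and 202.8 FPKM in Dhps flox. Wfdc21 stood at 196.34 and 218.32 FPKM against 210.78 and 188.41 FPKM, and Slpi, the secretory leukocyte protease inhibitor, at 104.2 and 125.79 FPKM against 110.02 and 102.2 FPKM. Each of the 6 stefin A genes was thus above any of these inhibitors in every library.

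Granule genes are expressed in order as neutrophils mature, primary granule genes first and tertiary granule genes last. No gene of these lists passed after adjustment. Of 6 primary granule genes, 5 were tested and none was below 0.05 before adjustment either, with a median difference of 0.55. Elane (23.82 and 13.86 against 9.76 and 15.37 FPKM), Mpo (17.5 and 11.03 against 7.56 and 11.13 FPKM) and Ms4a3 (24.39 and 20.55 against 20.94 and 21.5 FPKM) were all low. Elane and Mpo were higher in Dhps flox replicate 2 than in Dhps flox replicate 1, and higher in Dhps cko replicate 1 than in Dhps cko replicate 2, the opposite of the stefin A genes within each genotype. The 6 secondary granule genes had a median difference of 0.06, with 0 at an unadjusted p under 0.05. Ngp (27901.98 and 27612.01 against 27249.12 and 26339.45 FPKM), Ltf (6259.39 and 6506.2 against 6490.99 and 6477.31 FPKM) and Camp (4638.69 and 4564.59 against 4141.46 and 4267.0 FPKM) were of the abundance of the cluster or above it. Of 8 tertiary granule and late genes, 1 had an unadjusted limma p under 0.05, against 7.0% of all genes tested. It was Cd101 (0.23), named after its value was seen, and the median of the list was 0.12. Mmp8, neutrophil collagenase, stood at 889.98 and 1031.44 FPKM against 929.08 and 838.86 FPKM, and Mmp9 at 867.47 and 940.92 FPKM against 851.95 and 883.08 FPKM.

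As for the libraries as a whole, Dhps stood at 2.38 and 2.59 FPKM in Dhps cko and at 3.57 and 3.11 FPKM in Dhps flox, a log2 difference of -0.41 (limma adjusted p 0.63), so that the target was lower without overlap but did not pass the test. Lyz2, the gene at the Cre locus, stood at 2245.27 and 2379.85 FPKM against 6873.61 and 6544.27 FPKM (-1.54, limma adjusted p 0.083). The neutrophil markers S100a9 (24503.84 to 28032.62 FPKM), S100a8 and Ly6g were present in all libraries. Of the 7 neutrophil markers only Ly6g, named after its value was seen, had an unadjusted p under 0.05 (log2 difference 0.29). B cell markers summed to 62.8 and 65.4 FPKM in Dhps cko and 40.3 and 49.4 FPKM in Dhps flox. Of these, 4 of 6 had an unadjusted limma p under 0.05, against 7.0% of all genes tested. T cell markers summed to 16.9 and 13.5 FPKM against 10.8 and 7.31 FPKM, and eosinophil markers to 11.8 and 10.4 FPKM against 8.24 and 8.66 FPKM. Xist was higher and 4 of 4 Y-linked genes lower in Dhps cko at an unadjusted p under 0.05, and the make-up of the libraries by sex was not labelled. The part of these marker differences in the values of the cluster was not tested.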

How the data were processed

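RNA was measured in 4 libraries of PMN-MDSCs from mouse spleen, 2 Dhps cko and 2 Dhps flox, grouped by their genotype label. The authors trimmed reads with Cutadapt, aligned them with HISAT2 to mm10, and assembled and quantified genes with StringTie and ballgown, and deposited FPKM values per gene with 2 decimals. The treatment of reads that match several genes and the strand setting are not given in the sources used here. Whole reads could not be recovered, since 38.9% to 41.8% of low values lay within 0.15 of a whole fragment at the best depth, where 30.0% would by even spread, so depths and fragments per gene are rough estimates.

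From the FPKM, genes with a mean of at least 0.1 were tested with limma's moderated linear model (limma version 3.58.1, R version 4.3.3; variances shrunk towards a trend on the mean) on log2(FPKM + 0.1), without a replicate block, with Benjamini-Hochberg adjustment over all 17948 genes and a threshold of 0.05. A fold change is on that log2 scale. Alternatives changed the pseudocount, the filter, the scaling, the trend and the block, and left out each library in turn. The members, lists and tests were chosen with earlier results of these data known.

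Genes were named by rule: the 6 members, other genes of the locus, Dhps and Lyz2, the 3 most abundant of each list, and the 5 genes most like Stfa2l1. Ctsc, Lgmn, Cd101 and Ly6g fall outside the rule and were named after their values were seen. Exon and coding sequences came from GENCODE M21 (GRCm38), in which 28511 of 28585 identifiers were found, and promoters from RefSeq (GRCm38.p6, all 6 genes matched). Pairs were aligned with Biopython 1.88.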

Additional observations from a re-analysis of the deposited data

How the results depend on the processing

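The 6 stefin A genes were refitted under 13 alternatives each. With all 4 libraries kept, no gene passed the threshold under any alternative, the lowest limma adjusted p being 0.43. In 69 of the 78 refits the difference did not change sign. At these levels the changes of pseudocount, filter, trend and block could hardly move the difference. Its sign was free to change only under the scalings and when a library was left out. The TPM scaling turned Gm5483 to -0.012. Leaving out each library in turn gave log2 differences of -0.101 to 0.203 for Stfa1, 0.003 to 0.263 for Stfa2, -0.096 to 0.252 for Stfa3, -0.014 to 0.192 for Stfa2l1, -0.04 to 0.285 for BC100530, -0.148 to 0.187 for Gm5483 and -0.049 to 0.236 for the summed level. The negative values came without Dhps flox replicate 2 or, for Stfa1, Stfa3 and Gm5483, also without Dhps cko replicate 2. With 1 library left in a group, that library is assumed to vary like the others. Quantile normalization left Stfa3 (0.248) and Stfa2l1 (0.269) with an unadjusted p under 0.05, and no other alternative did so for any of the 6. These values follow from the method, which gives each rank 1 fixed value. Stfa3 was at rank 10 in both Dhps cko libraries and 11 in both Dhps flox libraries, and Stfa2l1 at 5 and 6, so the spread within groups became 0 and the difference was the gap between adjacent ranks. Stfa1 (ranks 8 and 9) and Gm5483 (22 and 23) held the same pair of ranks in both genotypes and were set to 0.

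Over all genes, the count with an adjusted p under 0.05 was 1, and it became 0 with a pseudocount of 0.01 FPKM, with no filter on low values, with the replicate block and without any single library, 4 with a mean of at least 1 FPKM and 2 with quantile normalization. The unadjusted count was 1216, 1675 and 1082 for the first 3 of these. The mean share of stretches found in another gene moved from 6.5% at 100 bases to 25.3% at 50 and 0 at 150 bases. The paper describes the genotypes as littermates, and the labels do not say whether same-numbered libraries shared a litter or a preparation. The deviations of same-numbered libraries had r = -0.06 over 10629 genes, which with 2 libraries a group cannot settle this. With the replicate block all 6 differences were as without it, with adjusted p from 0.98 to 1.0. Depths are estimates, and each group had 2 libraries. What limited the number of calls was not tested.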
